A study of Mus musculus with 8 samples.

Results

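Nicotine was given without lipopolysaccharide (LPS) to macrophages of the mouse peritoneal cavity, and the 2 nicotine libraries were compared with the 2 vehicle libraries, 4 of the 8 samples of the series. The groups were wild type cells with vehicle, wild type cells with nicotine, α7nAChR-/- cells with vehicle and α7nAChR-/- cells with nicotine, with 1 library each. The α7nAChR-/- mice lack the α7 nicotinic acetylcholine receptor and are called knockout here, and the labels give C57BL/6 as the strain. Nicotine was at 10 µM for 15 min and was followed by vehicle for 4 h at the point where the other 4 libraries received LPS at 100 ng/ml. The labels describe cells that stuck to plastic and were used the next day, without a sort for macrophages, and they leave unsaid if 1 preparation or separate animals supplied the libraries. Genotype and preparation therefore cannot be told apart, and a p-value here speaks only of the spread among these 4 libraries. The unit is FPKM, fragments per length of transcript and per size of library. A gene was tested when it had at least 5 FPKM in any of the 4 libraries, which held for 8293 of 24339 genes. Of these, 578 reached that level in nicotine libraries only and 1031 in vehicle libraries only, so such genes had to differ. The same holds for any gene named below whose printed values show this, also where it is not repeated.

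Macrophages are described as carrying nicotinic receptors that respond to acetylcholine and to nicotine, and the α7 type is known for damping inflammatory cytokine output. Cells that lack amino acids, meet oxidants or misfolded proteins, or lose haem phosphorylate the initiation factor eIF2α, which lowers protein synthesis in general but raises the translation of the transcription factor ATF4. ATF4 then raises genes for amino acid synthesis and uptake and for transfer RNA charging. Resting macrophages also hold a low level of interferon-driven genes, which encode antiviral proteins and GTPases that act on intracellular microbes.

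Chrna7, the gene for the α7 receptor (GRCm38 chromosome 7, minus strand, 63098692 to 63212569), had 0 FPKM in each of the 4 libraries, wild type included, so its values did not check the genotype labels. None of 25 genes for cholinergic receptors and enzymes reached the 5 FPKM needed for a test. Chrnb2, a nicotinic subunit of neurons, was listed at 0.312 and 1.14 FPKM in wild type and 0.229 and 0.381 FPKM in knockout cells, and Chrm3, a muscarinic receptor gene, at 0.052, 1.28, 0.0669 and 0.627 FPKM in the same order. A low or 0 value can be a failed estimate in this table, since Gapdh, a glycolytic gene of every cell, was listed at 1.52 and 1.34 FPKM with vehicle and nicotine in wild type and 2.495 and 3.23 FPKM in knockout cells. The FPKM summed over all genes was 413052 and 529093 with vehicle and nicotine in wild type and 442307 and 523764 in knockout cells. The total depth is unknown, but steps between low values put the value of 1 fragment at 1.02 times (wild type with nicotine), 0.859 times (knockout with vehicle) and 0.754 times (knockout with nicotine) that in wild type with vehicle. These ratios held for 26.5% to 28.7% of genes under 0.15 FPKM, within 0.02 on the log2 scale. The median change of all tested genes with nicotine was 0.13 on the log2 scale as deposited and -0.05 after quantile scaling of the libraries. The 2 vehicle libraries also differed. Saa3, an acute phase gene, was at 32418 FPKM in knockout against 7608 FPKM in wild type cells, and Il1b, for interleukin 1β, at 89.9 against 2.97 FPKM. Osm, for another cytokine, was at 3.899 against 7.58 FPKM, the other way round. These 3 genes were picked after their values were seen.

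Nicotine alone changed many of the expressed genes of these cells, though how many depended on the fit. The test was limma on log2(FPKM + 1) with genotype and nicotine as terms, where the spread is the difference between the effects in the 2 genotypes, on 1 residual degree of freedom and moderated across genes, with Benjamini-Hochberg adjustment at 0.05. Of 8293 genes 5619 passed (67.8%). With n = 2 libraries a side, 3217 genes rose (38.8% of those tested) and 2402 fell (29.0%), with a median standard error of 0.138. A change of at least 2-fold in the same direction in each genotype was seen in 1235 genes upwards (14.9%) and in 797 downwards (9.61%). All of these passed the test, which draws on the same 2 ratios and so is no separate support. The log2 ratios of the wild type and the knockout pair, which share no library, had a Pearson correlation of 0.925 across the 8293 genes as a description, and 89.9% of genes had the same sign. In wild type cells 1583 genes were at least 2-fold higher and 1076 lower. Knockout cells gave 1462 and 1071, and with median centring the splits were 1267 and 1393 in wild type and 1100 and 1424 in knockout cells. As deposited, the genes 2-fold higher in both made up 78.0% of the wild type and 84.5% of the knockout genes. For lower genes the shares were 74.1% and 74.4%. At 4-fold in both genotypes 234 genes were higher and 89 lower, and at 8-fold 39 and 8. A fit over all 8 libraries called 5007 genes, and 3473, 3601, 3758 and 3560 when the wild type vehicle, wild type nicotine, knockout vehicle or knockout nicotine library was left out. The 4-library fit without the genotype term called 3602.

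**Figure D1:**
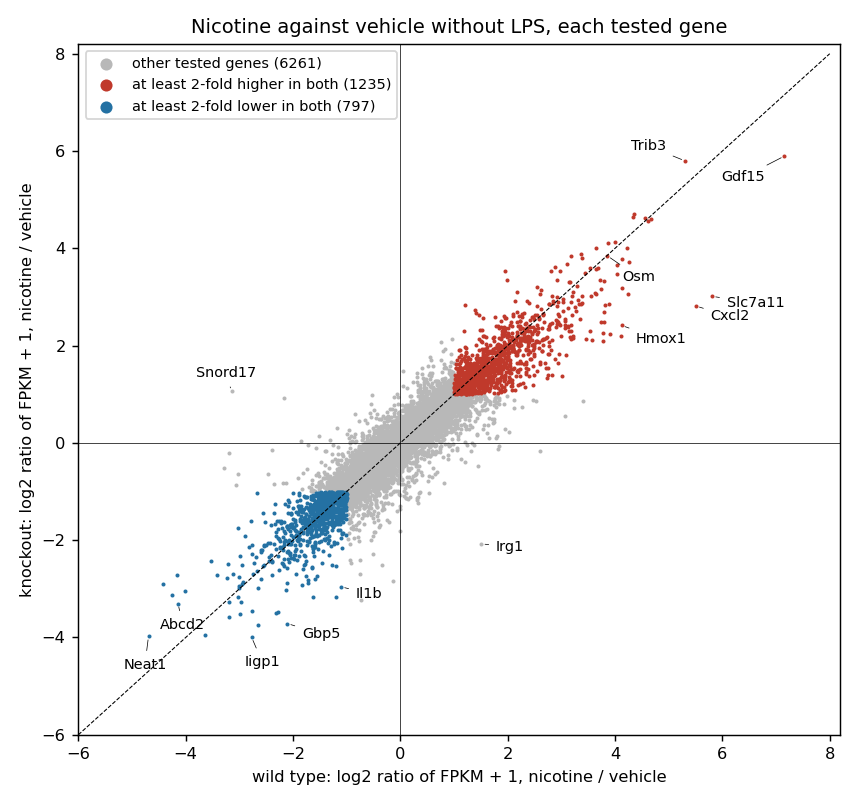
Log2 ratio of FPKM + 1 between nicotine and vehicle in wild type (horizontal) and knockout macrophages (vertical), without LPS; each point is 1 of 8293 tested genes, and the dashed line marks equal ratios. The 1235 genes at least 2-fold higher in both genotypes and the 797 lower in both lie along the line, and Irg1 and Snord17 are the 2 genes at least 2-fold apart in opposite directions.

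The largest rise was in Gdf15, a stress-induced relative of TGF-β (GRCm38 chromosome 8, minus strand, 70629393 to 70632456). It was listed at 3.005 FPKM with vehicle and 570.2 FPKM with nicotine in wild type cells, and at 1.75 and 163 FPKM in knockout cells. Gdf15 changed by 6.53 ± 0.29 (log2, SE, limma adjusted p = 0.000221). Trib3, the pseudokinase that feeds back on ATF4 (GRCm38 chromosome 2, minus strand, 152337422 to 152344032), was at 1.004 FPKM with vehicle and 78.1 FPKM with nicotine in wild type cells, and at 0.539 and 84.6 FPKM in knockout cells. Trib3 changed by 5.55 ± 0.16 (log2, SE, limma adjusted p = 0.000168). For both genes each nicotine library lay far above both vehicle libraries. Asns, for asparagine synthetase (GRCm38 chromosome 6, minus strand, 7675169 to 7693254), came to 2.47 and 81.1 FPKM with vehicle and nicotine in wild type and 3.74 and 115 FPKM in knockout cells (log2 change 4.59 ± 0.12, SE, limma adjusted p = 0.000168). Ramp3, a partner protein of adrenomedullin receptors, rose 24.9-fold, from 3.36 to 110.1 FPKM in wild type and 5.85 to 166 FPKM in knockout cells. Ifrd1, an interferon-related regulator of transcription, rose 23.98-fold, from 15.1 to 391 FPKM in wild type and 16.9 to 422 FPKM in knockout cells. Chac1, an enzyme that degrades glutathione, was under 1 FPKM in both vehicle libraries and at 24.05 and 32.5 FPKM with nicotine. The same pattern, low with vehicle and high with nicotine in both genotypes, was seen for Plcxd2 (4.49), Slc7a1 (4.11), Sesn2 (4.06) and Tmem132a (3.99), with the log2 change in brackets. Slc7a11, the cystine importer, stood at 9.23 FPKM with vehicle and 573 FPKM with nicotine in wild type cells, and at 59.7 and 489 FPKM in knockout cells, so that its vehicle levels differed between genotypes but its nicotine levels were close (log2 change 4.41 ± 0.60, SE, limma adjusted p = 0.00172). The neutrophil attractant Cxcl2 completed the 12 largest rises, at 10.3 FPKM with vehicle and 511 FPKM with nicotine in wild type cells, and at 43.2 and 309.5 FPKM in knockout cells. Cxcl2 changed by 4.16 ± 0.58 (log2, SE, limma adjusted p = 0.00185).

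Neat1, the long noncoding RNA that builds nuclear paraspeckles (GRCm38 chromosome 19, minus strand, 5824708 to 5845478), had the largest fall among the genes named by rule. It was listed at 388 FPKM with vehicle and 14.05 FPKM with nicotine in wild type cells, and at 282 and 17.01 FPKM in knockout cells. Neat1 changed by -4.33 ± 0.19 (log2, SE, limma adjusted p = 0.000221). Both nicotine libraries lay far below both vehicle libraries. Tifab, a regulator of Toll-like receptor signalling, moved from 20.7 to 0.742 FPKM in wild type and 22.2 to 0.511 FPKM in knockout cells (log2 change -3.79 ± 0.17, SE, limma adjusted p = 0.000221). Abcd2, a peroxisomal fatty acid transporter, moved from 28.9 to 0.694 FPKM in wild type and 11.8 to 0.293 FPKM in knockout cells, and Emilin1, a matrix glycoprotein gene, from 37.9 to 1.04 FPKM in wild type and 25.3 to 2.03 FPKM in knockout cells. Engase, which cuts sugar chains from proteins, fell by 3.67 on the log2 scale from unlike vehicle levels of 85.6 FPKM in wild type and 9.56 FPKM in knockout cells. The other 7 of the 12 largest falls were Rin2 (-3.44), an endocytosis regulator, Mtus1 (-3.38), Iigp1 (-3.38), an interferon-inducible GTPase, Clec2d (-3.25), a ligand of natural killer cell receptors, Tor4a (-3.23), Gbgt1 (-3.20), a glycosyltransferase, and Themis2 (-3.12), an adaptor of macrophage activation.

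**Figure D2:**
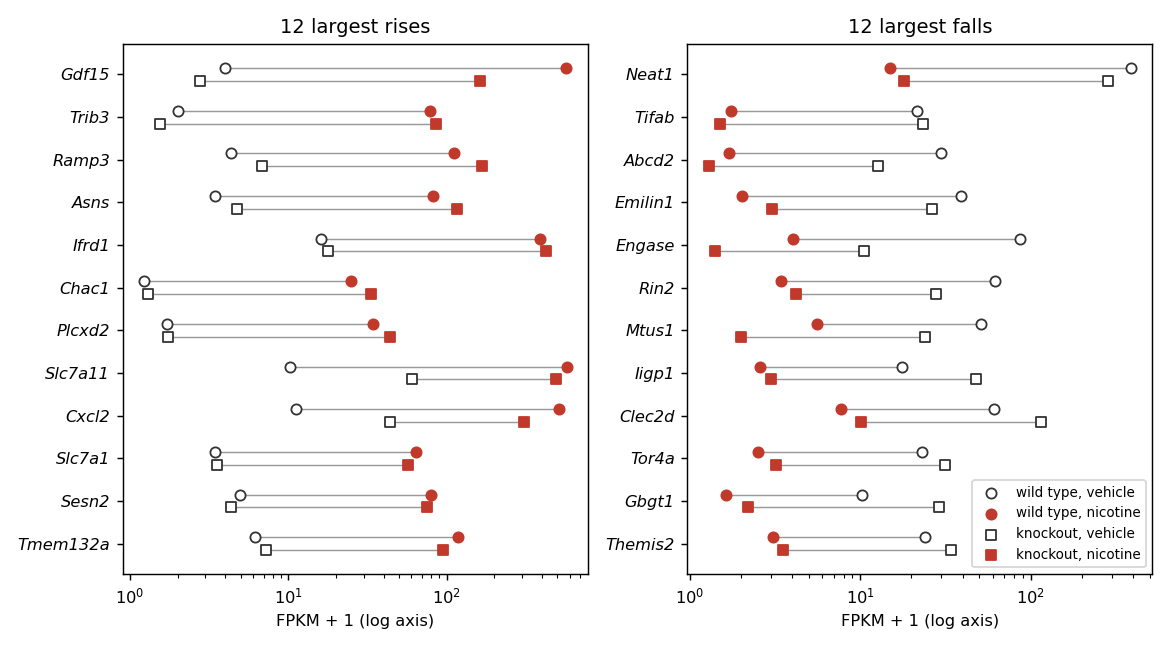
FPKM + 1 on a log axis in the 4 libraries for the 12 largest rises and 12 largest falls; circles are wild type, squares knockout, open symbols vehicle and filled symbols nicotine, 1 library each. In every gene shown both nicotine libraries lie on the same side of both vehicle libraries. The genes were chosen as the largest changes of at least 2-fold in the same direction in both genotypes, so this order largely follows from the choice. Gdf15 runs from 1.75 and 3.005 FPKM with vehicle to 163 and 570.2 FPKM with nicotine.

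The regulators of the ATF4 stress response rose as a group. Of 20 listed genes 17 were tested, 15 rose and 0 fell, 11 of them at least 2-fold in both genotypes, with a median log2 change of 2.16 against 0.13 over all tested genes. The counts of this and the other lists are to be read against the 38.8% of tested genes that rose and the 29.0% that fell. Atf4 itself was abundant and rose 9.41-fold, at 103 FPKM with vehicle and 938 FPKM with nicotine in wild type cells, and at 88.6 and 882 FPKM in knockout cells. Atf4 changed by 3.23 ± 0.11 (log2, SE, limma adjusted p = 0.000168). Both nicotine libraries lay above both vehicle libraries, and the levels of the 2 genotypes were close. Ddit3, which encodes the transcription factor CHOP of the stress response, rose to 139 and 167 FPKM from 18.9 and 13.6 FPKM. Atf5 moved from 9.54 to 144 FPKM in wild type and 9.11 to 101.02 FPKM in knockout cells and Atf3, a repressor of inflammatory genes, from 136 to 527 FPKM in wild type and 66.7 to 348 FPKM in knockout cells. Ppp1r15a, the phosphatase subunit that removes phosphate from eIF2α, rose 14.4-fold, and its constitutive relative Ppp1r15b 3.51-fold. Impact, an inhibitor of the kinase GCN2, moved from 13.7 to 240.2 FPKM in wild type and 10.2 to 124 FPKM in knockout cells. Of the kinases that phosphorylate eIF2α, Eif2ak4, for GCN2, rose by 0.49 and Eif2ak3, for PERK, came to 0.36 ± 0.13 and did not pass.

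Genes that make, import and charge amino acids rose along with them, though not every member. Among genes of amino acid and one-carbon synthesis 12 of 13 tested members rose and 0 fell, with 11 at least 2-fold higher in both genotypes and a median of 1.68. Members such as Phgdh and Cth reached 5 FPKM in nicotine libraries only, so they had to differ. With a mean of at least 5 FPKM required, 10 of 10 rose, and without a filter 13 of 18 rose and 0 fell. Mthfd2, a mitochondrial folate enzyme, was at 8.69 FPKM with vehicle and 182 FPKM with nicotine in wild type cells, and at 18.3 and 161 FPKM in knockout cells. Mthfd2 changed by 3.65 ± 0.28 (log2, SE, limma adjusted p = 0.000373). Phgdh, which starts serine synthesis, moved from 2.78 to 34.1 FPKM in wild type and 2.95 to 32.9 FPKM in knockout cells, and the next enzymes of the path gave Psat1 (2.04) and Psph (0.87). Shmt2, which passes a carbon from serine to folate, rose 3.598-fold, and Aldh18a1, of proline synthesis, 3.201-fold. Cth, the last enzyme from methionine to cysteine, was listed at 0 and 0.2497 FPKM with vehicle and at 3.52 and 9.76 FPKM with nicotine. Of the transporters 8 of 15 tested members rose and 3 fell, with a median of 0.54. The sodium-coupled carrier Slc38a2 was at 20.1 FPKM with vehicle and 368 FPKM with nicotine in wild type cells, and at 18.4 and 267 FPKM in knockout cells. Slc38a2 changed by 3.96 ± 0.14 (log2, SE, limma adjusted p = 0.000174). Slc3a2, the heavy chain shared by several exchangers, moved from 67.9 to 973 FPKM in wild type and 115 to 828 FPKM in knockout cells, and its light chain Slc7a5, which imports leucine, from 2.84 to 54.8 FPKM in wild type and 1.68 to 45.3 FPKM in knockout cells. Slc7a1, an arginine importer, rose 17.3-fold, whereas the macrophage arginine carrier Slc7a2 fell from 22.1 to 5.44 FPKM in wild type and 95.8 to 35.8 FPKM in knockout cells (log2 change -1.62 ± 0.16, SE, limma adjusted p = 0.000621). Slc43a2, a carrier of branched amino acids, also fell (-1.26).

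Of the cytosolic aminoacyl-tRNA synthetases 11 of 20 tested members rose and 3 fell, and 9 were at least 2-fold higher in both genotypes. Aars, for alanine, was at 15.1 FPKM with vehicle and 123 FPKM with nicotine in wild type cells, and at 19.98 and 128 FPKM in knockout cells. Aars changed by 2.78 ± 0.14 (log2, SE, limma adjusted p = 0.000234). Nars, for asparagine, moved from 55.02 to 280.4 FPKM in wild type and 47.4 to 264 FPKM in knockout cells, and Rars (2.45), Yars (2.35), Gars (1.92), Eprs (1.804) and Cars (1.76) rose as well. The other 6 did not pass. Dars, for aspartate, fell from 29.4 to 12.8 FPKM in wild type and 24.7 to 13.3 FPKM in knockout cells (log2 change -0.996 ± 0.14, SE, limma adjusted p = 0.00179).

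To show the sequences in front of such genes, the 250 bases before each start were searched for TGATGNAA, a form of the element that ATF4 binds with C/EBP proteins, on both strands. The promoters, credited to RefSeq on GRCm38.p6, covered 6437 of 8293 tested genes (77.6%), so the shares describe the covered genes only. Of 8285 promoters 2.05% held a match. The share was 15% (3 of 20) for the stress regulators, 18.2% (2 of 11) for amino acid synthesis, 15% (3 of 20) for the transporters and 3 of 12 for the synthetases. For genes at least 2-fold higher in both genotypes it was 2.45%, and for those at least 4-fold higher 3.14%. The stretches around the matches are printed 5′ to 3′ on the strand of the gene for 6 risers, with the match, or its reverse complement, in capitals.

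Asns, chr6:7693210-7693257, minus strand: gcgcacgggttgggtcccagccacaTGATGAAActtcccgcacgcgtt
Chac1, chr2:119351024-119351081, plus strand: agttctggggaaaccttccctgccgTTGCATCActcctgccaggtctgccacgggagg
Slc7a11, chr3:50443628-50443704, minus strand: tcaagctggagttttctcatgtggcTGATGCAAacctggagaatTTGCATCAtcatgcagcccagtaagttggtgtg
Atf3, chr1:191183411-191183468, minus strand: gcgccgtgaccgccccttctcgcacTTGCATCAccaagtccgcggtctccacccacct
Aars, chr8:111033705-111033762, plus strand: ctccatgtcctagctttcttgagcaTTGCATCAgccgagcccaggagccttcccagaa
Gars, chr6:55037946-55038000, plus strand: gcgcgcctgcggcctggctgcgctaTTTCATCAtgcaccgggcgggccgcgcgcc

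Slc7a11 holds 2 matches in this window and the others 1 each. The Asns stretch lies before its RefSeq start but mostly within the gene span given above, which comes from GENCODE. A match is a description of the letters and not evidence of binding here.

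Genes of nutrient sensing at the lysosome moved in both directions. In the list of sestrins, folliculin and TFE factors 9 of 16 tested members rose and 4 fell. Sesn2, a leucine sensor that ATF4 raises, was at 3.96 FPKM with vehicle and 78.5 FPKM with nicotine in wild type cells, and at 3.35 and 74.8 FPKM in knockout cells. Sesn2 changed by 4.06 ± 0.12 (log2, SE, limma adjusted p = 0.000168). Its relative Sesn1 did the reverse, at 57.5 FPKM with vehicle and 10.5 FPKM with nicotine in wild type cells, and at 37.7 and 8.1 FPKM in knockout cells. Sesn1 changed by -2.22 ± 0.13 (log2, SE, limma adjusted p = 0.000252), so the vehicle and nicotine libraries of the 2 genes were ordered oppositely. Folliculin and its partners, which act on the Rag GTPases, rose together, with Flcn (2.38), Fnip1 (2.14) and Fnip2 (3.61). The Rag genes rose too, with Rragd from 2.51 to 26.4 FPKM in wild type and 1.199 to 24.6 FPKM in knockout cells and Rragc from 73.8 to 379.9 FPKM in wild type and 60.5 to 339 FPKM in knockout cells. Of the transcription factors that folliculin controls, Mitf (-1.40) and Tfeb (-0.68) fell. Among autophagy genes 13 of 19 tested members rose and 3 fell, with a median of 0.84. Sqstm1, the cargo receptor p62, was at 244 FPKM with vehicle and 2288 FPKM with nicotine in wild type cells, and at 299 and 1343 FPKM in knockout cells. Sqstm1 changed by 2.70 ± 0.24 (log2, SE, limma adjusted p = 0.0005299). The membrane tags gave Gabarapl1 (1.86) and Map1lc3b (1.44), and Optn (1.71), another cargo receptor, and Atg12 (1.66) rose, whereas Wipi1 (-1.46) and Atg7 (-0.85) fell.

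For lysosomal hydrolases and the proton pump 19 of 30 tested members rose and 3 fell, with a median of 0.53 that was 0.16 with quantile scaling, under which 14 rose and 8 fell. All 8 that were at least 2-fold higher in both genotypes were the galactosidase Gla and 7 pump subunits. Gla moved from 35.1 to 329 FPKM in wild type and 28.9 to 239.6 FPKM in knockout cells (log2 change 3.10 ± 0.12, SE, limma adjusted p = 0.000221). The pump subunit Atp6v1h was at 34.8 FPKM with vehicle and 280.2 FPKM with nicotine in wild type cells, and at 38.2 and 209.9 FPKM in knockout cells. Atp6v1h changed by 2.70 ± 0.17 (log2, SE, limma adjusted p = 0.000252), and Atp6v0d2 (2.18), Atp6v1c1 (2.18), Atp6v1d (1.87), Atp6v0d1 (1.77) and Atp6v1a (1.67) followed. The proteases split, with Ctsl (1.05) and Ctsb (0.84) higher and Ctsh (-0.46) and Ctss (-0.23) lower. TCACGTGA, the palindrome bound by TFEB and TFE3, was in 20.8% (5 of 24) of the promoters of this list, 3.13% of those of genes 2-fold higher in both genotypes and 1.77% of all.

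**Figure D3:**
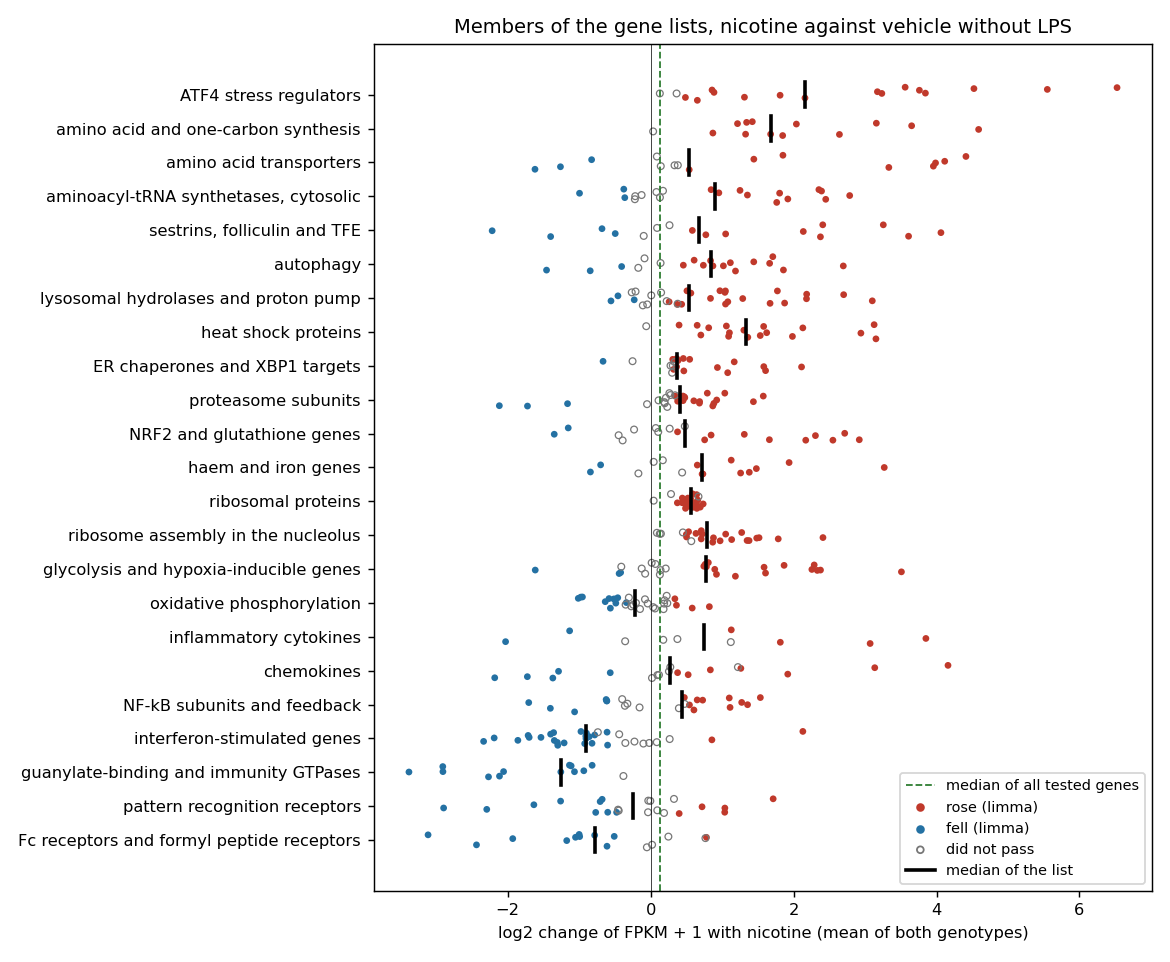
Log2 change of FPKM + 1 with nicotine without LPS for members of 23 gene lists; each point is 1 tested gene, filled red where it rose and filled blue where it fell by limma, open where it did not pass, and black bars are list medians. The dashed line is the median of all tested genes (0.13); the ATF4 regulators have the highest list median (2.16) of those drawn and the guanylate-binding GTPases the lowest (-1.26).

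Heat shock genes, for protein-folding factors of the cytosol and of mitochondria, rose as a group. Of 18 tested heat shock genes 17 rose and 0 fell, 11 of them at least 2-fold in both genotypes, and the median was 1.33. Hsp90aa1, the inducible HSP90, was at 53.9 FPKM with vehicle and 569.7 FPKM with nicotine in wild type cells, and at 64.2 and 478 FPKM in knockout cells. Hsp90aa1 changed by 3.13 ± 0.15 (log2, SE, limma adjusted p = 0.000234). Hspa1a and Hspa1b, the inducible HSP70 genes, moved from 0.654 to 21.7 FPKM in wild type and 1.81 to 11.1 FPKM in knockout cells and from 0.7397 to 28.9 FPKM in wild type and 2.69 to 15.97 FPKM in knockout cells. The nicotine libraries lay above the vehicle libraries for both, which are near-identical copies, so their split of reads is uncertain. The chaperonin pair rose with Hspd1 (1.98) and Hspe1 (1.30), and the co-chaperones with Hsph1 (2.13), Bag3 (1.58) and Dnajb1 (1.53). Hspa4l did not pass (-0.06 ± 0.16). The heat shock element GAANNTTC was in 5 of 20 promoters of these genes and 4.89% of all. Matches in 2 of them, chosen after their values were seen, read as follows.

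Hspa1b, chr17:34959310-34959367, minus strand: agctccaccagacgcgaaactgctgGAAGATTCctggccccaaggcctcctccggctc
Hspe1, chr1:55088039-55088096, plus strand: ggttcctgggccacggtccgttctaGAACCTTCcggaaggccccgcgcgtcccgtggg

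Chaperones of the endoplasmic reticulum were counted apart. Of 20 tested 14 rose and 1 fell, with 3 at least 2-fold higher in both genotypes, but with quantile scaling 5 rose and 2 fell. Hspa5, the lumenal HSP70 known as BiP, was at 225 FPKM with vehicle and 636 FPKM with nicotine in wild type cells, and at 278 and 886 FPKM in knockout cells. Hspa5 changed by 1.58 ± 0.10 (log2, SE, limma adjusted p = 0.000275). Dnajb9 (2.11) and Herpud1 (1.61), of the disposal path, were the other 2. Pdia4 fell (-0.67). Xbp1, for the factor that drives these chaperones, came to 0.31 ± 0.16 and did not pass. Proteasome genes split by type of subunit. In all 16 of 28 tested members rose and 3 fell, with a median of 0.41. Of them 7 rose and 5 fell with quantile scaling, with a median of -0.08. As deposited the 3 fallers were the catalytic subunits of the immunoproteasome, Psmb9 (-2.12), Psmb10 (-1.72) and Psmb8 (-1.16). Psmb9 was at 28.3 FPKM with vehicle and 5.07 FPKM with nicotine in wild type cells, and at 75.9 and 18.7 FPKM in knockout cells, so that both genotypes fell from unlike vehicle levels. Psmd11, of the regulatory particle, moved from 22.9 to 84.1 FPKM in wild type and 31.9 to 81.2 FPKM in knockout cells, and the ATPases gave Psmc6 (1.44) and Psmc2 (1.04).

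Antioxidant genes that NRF2 controls moved in both directions. 10 of 19 tested members rose and 2 fell, with a median of 0.48 that was 0.01 with quantile scaling. Txnrd1, thioredoxin reductase, was at 83.8 FPKM with vehicle and 746 FPKM with nicotine in wild type cells, and at 137 and 674 FPKM in knockout cells. Txnrd1 changed by 2.72 ± 0.21 (log2, SE, limma adjusted p = 0.000376). Both subunits of the enzyme that starts glutathione synthesis rose, with Gclc (2.55) and Gclm (2.17), as did Srxn1 (2.31), which repairs peroxiredoxins, and Osgin1 (2.92). Nqo1, often used as the standard NRF2 target, was at 5.23 FPKM with vehicle and 4.53 FPKM with nicotine in wild type cells, and at 18.2 and 10.6 FPKM in knockout cells and did not pass (-0.45 ± 0.17). G6pdx, which supplies NADPH, fell from 60.98 to 24.04 FPKM in wild type and 90.2 to 33.8 FPKM in knockout cells and the peroxidase Gpx1 from 564 to 262 FPKM in wild type and 734 to 318 FPKM in knockout cells. TGACNNNGC, the antioxidant response element, was in 33.3% of the promoters of this list, 19.3% of those of genes 4-fold higher in both genotypes and 12.2% of all.

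Hmox1, the haem oxygenase gene (GRCm38 chromosome 8, plus strand, 75093621 to 75100589), was listed at 313 FPKM with vehicle and 5471 FPKM with nicotine in wild type cells, and at 501 and 2676 FPKM in knockout cells. Hmox1 changed by 3.27 ± 0.37 (log2, SE, limma adjusted p = 0.000965). The nicotine level was higher in wild type than in knockout cells and the vehicle level lower, and both nicotine libraries lay above both vehicle libraries. Among haem and iron genes 9 of 15 tested members rose and 2 fell. The iron importers Slc11a2 and Tfrc rose (1.94 and 1.38), as did Bach1, a repressor of Hmox1 (1.48). Of the ferritin chains, Ftl1 rose from 9559 to 17309 FPKM in wild type and 8681 to 13001 FPKM in knockout cells and Fth1 did not pass (0.17 ± 0.09). Hp, for haptoglobin, fell from 308 to 208 FPKM in wild type and 1190.0 to 548 FPKM in knockout cells (log2 change -0.84 ± 0.15, SE, limma adjusted p = 0.00445).

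Inflammatory cytokine genes did not move one way. Of 20 listed 10 were tested, 4 rose and 2 fell. With a mean of at least 5 FPKM required, 3 of 8 rose and 2 fell, and without a filter 5 of 20 rose and 4 fell. In the fit over 8 libraries 3 rose and 1 fell. Osm, for oncostatin M (GRCm38 chromosome 11, plus strand, 4236420 to 4241026), was at 7.58 FPKM with vehicle and 123 FPKM with nicotine in wild type cells, and at 3.899 and 69.4 FPKM in knockout cells. Osm changed by 3.85 ± 0.12 (log2, SE, limma adjusted p = 0.000168). Il1a, for interleukin 1α, was at 3.49 FPKM with vehicle and 66.1 FPKM with nicotine in wild type cells, and at 39.9 and 192 FPKM in knockout cells. Il1a changed by 3.07 ± 0.37 (log2, SE, limma adjusted p = 0.001199). Both genes were higher with nicotine in each genotype, but the nicotine level of Il1a in wild type cells was of the order of the vehicle level in knockout cells. Tnf was at 9.88 FPKM with vehicle and 90.8 FPKM with nicotine in wild type cells, and at 44.3 and 65.4 FPKM in knockout cells, and the rise was large in wild type and small in knockout cells (log2 ratios 3.08 and 0.55, limma adjusted p = 0.0289). Il1b was at 2.97 FPKM with vehicle and 0.8497 FPKM with nicotine in wild type cells, and at 89.9 and 10.7 FPKM in knockout cells and fell (log2 change -2.03 ± 0.41, SE, limma adjusted p = 0.00703). Il18, another inflammasome product, fell from 8.73 to 3.15 FPKM in wild type and 15.2 to 6.88 FPKM in knockout cells. Il6 was at 0.264 FPKM with vehicle and 4.16 FPKM with nicotine in wild type cells, and at 5.31 and 6.33 FPKM in knockout cells and did not pass (1.12 ± 0.43, limma adjusted p = 0.0604). Il10, the anti-inflammatory cytokine, was too low to test, at 0.352 FPKM with vehicle and 2.53 FPKM with nicotine in wild type cells, and at 0.788 and 1.86 FPKM in knockout cells.

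Chemokine genes moved in both directions, in shares near those of all tested genes. 7 of 18 tested members rose and 5 fell, with a median of 0.26 that was -0.13 with quantile scaling. With a mean of at least 5 FPKM required, 6 of 16 rose and 4 fell. Cxcl1 was at 3.66 FPKM with vehicle and 63.5 FPKM with nicotine in wild type cells, and at 6.14 and 38.9 FPKM in knockout cells. Cxcl1 changed by 3.14 ± 0.30 (log2, SE, limma adjusted p = 0.000621). Ccl3, an attractant of monocytes and T cells, was at 27.3 FPKM with vehicle and 93.5 FPKM with nicotine in wild type cells, and at 44.8 and 195 FPKM in knockout cells. Ccl3 changed by 1.92 ± 0.14 (log2, SE, limma adjusted p = 0.000351). In contrast Cxcl10 fell from 4.17 to 1.25 FPKM in wild type and 34.4 to 2.95 FPKM in knockout cells and Cxcl9 from 3.14 to 0.438 FPKM in wild type and 6.12 to 2.43 FPKM in knockout cells. Cxcl10 and Cxcl9 reached 5 FPKM in the knockout vehicle library only, so they had to differ there. Cxcl3, a close relative of Cxcl2, also fell, from 5.74 to 1.28 FPKM in wild type and 87.7 to 23.01 FPKM in knockout cells (log2 change -1.73 ± 0.14, SE, limma adjusted p = 0.000417), and so did Cxcl16, a scavenger receptor and chemokine, from 111 to 41.7 FPKM in wild type and 129.7 to 50.2 FPKM in knockout cells. Ccl4 (1.22 ± 0.60) and Ccl5 (0.27 ± 0.23) did not pass, and their vehicle levels differed between genotypes, at 3.11 and 27.4 FPKM for Ccl4 and 17.7 and 311 FPKM for Ccl5. NF-kB subunits and feedback genes gave 10 that rose and 6 that fell of 22, led by Nfkbib (1.53) and Cflar (1.36) upwards and by Nfkbie (-1.71) and Irak3 (-1.40) downwards. With quantile scaling the NF-kB counts were 5 and 5. In the fit over 8 libraries 9 rose and 3 fell, and these counts were 4 and 9 without the wild type vehicle library, 4 and 2 without wild type nicotine, 10 and 2 without knockout vehicle, and 5 and 3 without knockout nicotine. Of these 5 fits, NF-kB fallers outnumbered risers in the one without the wild type vehicle library. In a fit over all 8 libraries 4 chemokines rose and 3 fell, and the pairs of counts were 3 and 3 without the wild type vehicle library, 3 and 2 without the wild type nicotine library, 4 and 3 without the knockout vehicle library and 3 and 1 without the knockout nicotine library.

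Genes driven by interferon were lower with nicotine. Of 32 tested interferon-stimulated genes 22 fell and 2 rose, with a median of -0.90 against 0.13 over all genes, and of 13 guanylate-binding and immunity GTPases 12 fell and 0 rose, with a median of -1.26. Members such as Ifit1 reached 5 FPKM in a vehicle library only, so they had to differ. With a mean of at least 5 FPKM required, 21 interferon-stimulated genes were tested, of which 15 fell and 2 rose. By that filter 10 of 11 GTPases fell and 0 rose. Rtp4 was at 7.07 FPKM with vehicle and 0.869 FPKM with nicotine in wild type cells, and at 53.2 and 8.15 FPKM in knockout cells. Rtp4 changed by -2.34 ± 0.16 (log2, SE, limma adjusted p = 0.000301). The knockout vehicle library was the highest of the 4 for this gene and the wild type nicotine library the lowest. The RNA sensors gave Ddx58 (-1.54), Ifih1 (-1.36) and Dhx58 (-1.35), and the antiviral genes Ifit3 (-1.71) and Ifit1 (-1.40). Ifit1 was at 0.887 FPKM with vehicle and 0.324 FPKM with nicotine in wild type cells, and at 14.99 and 2.27 FPKM in knockout cells, so that both wild type libraries were under 1 FPKM and most of the change lay in the knockout pair. Iigp1, which attacks the vacuoles of parasites, was at 16.7 FPKM with vehicle and 1.59 FPKM with nicotine in wild type cells, and at 46.6 and 1.99 FPKM in knockout cells. Iigp1 changed by -3.38 ± 0.29 (log2, SE, limma adjusted p = 0.0004802). Gbp5 (-2.91), a guanylate-binding protein that promotes inflammasome assembly, Irgm2 (-2.91), Tgtp2 (-2.27), Igtp (-2.06) and Gbp7 (-2.12) followed, and Irgm1 did not pass (-0.38 ± 0.24). Several GTPase and Oas genes are near copies, so the split of reads between them is uncertain. The 2 risers were Isg15 and Rsad2. Isg15, a ubiquitin-like antiviral protein, was at 6.25 FPKM with vehicle and 35.8 FPKM with nicotine in wild type cells, and at 54.8 and 209.7 FPKM in knockout cells. Isg15 changed by 2.13 ± 0.15 (log2, SE, limma adjusted p = 0.000327). Rsad2, for viperin, was at 0.753 FPKM with vehicle and 2.796 FPKM with nicotine in wild type cells, and at 9.499 and 14.9 FPKM in knockout cells. Rsad2 changed by 0.86 ± 0.19 (log2, SE, limma adjusted p = 0.00974). In a fit over all 8 libraries the interferon-stimulated count of 12 fallers was 4 without the knockout vehicle library, 7 without the knockout nicotine library, 8 without the wild type nicotine library and 12 without the wild type vehicle library. The GTPase count of 9 was 6, 5, 10 and 8 in the same order. In the 4-library fit without the genotype term 3 interferon-stimulated genes and 2 GTPases fell.

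The core of the interferon-stimulated response element, searched as GAAA followed after any 2 bases by GAAA on either strand, was in 40.7% (11 of 27) of the promoters of interferon-stimulated genes, 90% (9 of 10) of those of the GTPases, 4.02% of those of all genes at least 2-fold lower in both genotypes and 2.81% of all promoters. Fallers and the riser Isg15 alike hold it, as these stretches chosen after the values were seen show, with all matches in capitals, overlapping ones included.

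Gbp5, chr3:142496744-142496803, plus strand: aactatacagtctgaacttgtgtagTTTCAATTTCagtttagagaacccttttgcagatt
Irgm2, chr11:58214888-58214947, plus strand: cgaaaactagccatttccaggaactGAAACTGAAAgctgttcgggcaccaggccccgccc
Igtp, chr11:58199497-58199555, plus strand: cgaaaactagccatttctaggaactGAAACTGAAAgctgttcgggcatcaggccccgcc
Ifit1, chr19:34640760-34640838, plus strand: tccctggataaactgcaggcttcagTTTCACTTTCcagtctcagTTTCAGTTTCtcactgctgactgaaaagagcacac
Isg15, chr4:156200850-156200921, minus strand: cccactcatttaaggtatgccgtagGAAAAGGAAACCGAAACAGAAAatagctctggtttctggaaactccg

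**Figure D4:**
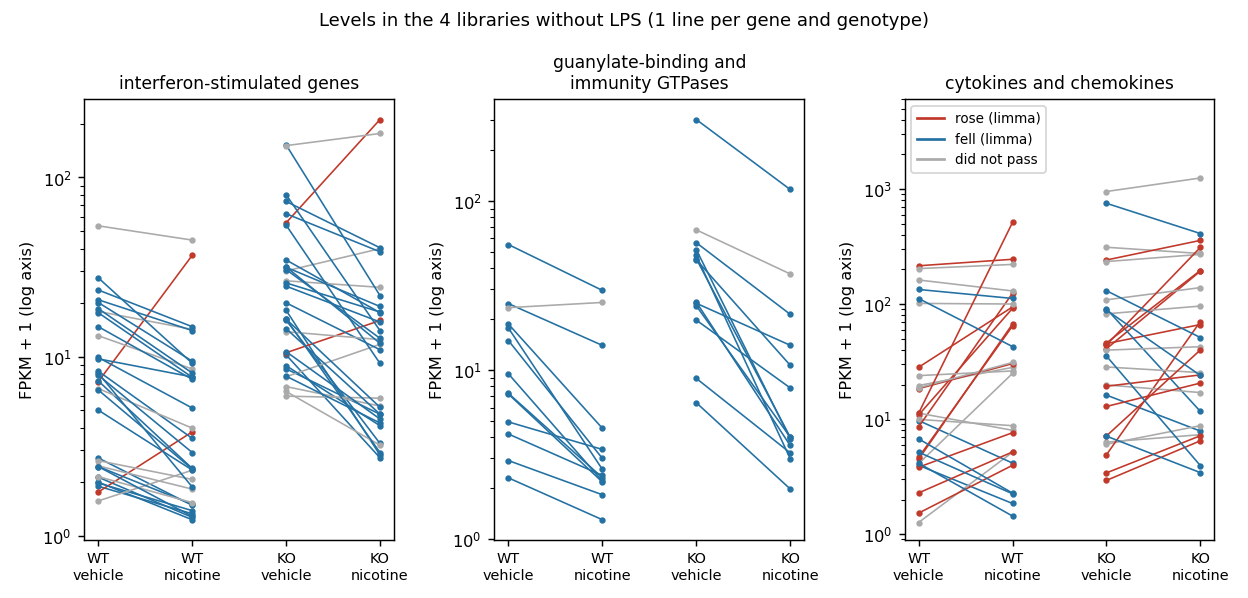
FPKM + 1 on a log axis in the 4 libraries for interferon-stimulated genes, guanylate-binding and immunity GTPases, and cytokines and chemokines; each line joins vehicle and nicotine of 1 gene in 1 genotype, coloured by the limma call. The lines of the first 2 panels run mostly downwards in both genotypes from higher vehicle levels in the knockout library, as for Rtp4 (7.07 and 53.2 FPKM with vehicle), while the third panel holds both directions.

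Signalling genes changed in opposite directions within families. Of the immediate early genes 10 of 20 tested members rose and 6 fell. Jun was at 23.5 FPKM with vehicle and 129 FPKM with nicotine in wild type cells, and at 12.5 and 76.7 FPKM in knockout cells. Jun changed by 2.47 ± 0.13 (log2, SE, limma adjusted p = 0.000234), and Fosl1, a FOS-related partner of it, moved from 0.0647 to 13.5 FPKM in wild type and 0.491 to 6.16 FPKM in knockout cells, whereas Fos fell (-0.75 ± 0.18). Nr4a3, an orphan receptor induced by cyclic AMP and calcium, moved from 0.8604 to 19.4 FPKM in wild type and 1.23 to 8.74 FPKM in knockout cells. Of the Krüppel-like factors Klf4 (2.43) and Klf6 (1.91) rose and Klf2, known for quieting macrophages, fell from 19.5 to 5.75 FPKM in wild type and 20.7 to 3.91 FPKM in knockout cells. The phosphatase Dusp1, which turns off p38 and JNK kinases, was at 8.05 FPKM with vehicle and 107 FPKM with nicotine in wild type cells, and at 11.2 and 52.1 FPKM in knockout cells. Dusp1 changed by 2.85 ± 0.33 (log2, SE, limma adjusted p = 0.00106). Over the MAP kinase phosphatases 5 of 7 tested members rose and 2 fell, with Dusp4 (2.35) and Dusp6 (-1.30), both of which act on ERK, on either side. In the JAK-STAT3 path that α7 signalling is known to use, 7 of 18 tested members rose and 3 fell, with quantile scaling 2 and 5. Jak2 was at 16.9 FPKM with vehicle and 19.3 FPKM with nicotine in wild type cells, and at 40.6 and 18.2 FPKM in knockout cells and did not pass (-0.47 ± 0.30, limma adjusted p = 0.213). Stat3 was at 29.6 FPKM with vehicle and 63.9 FPKM with nicotine in wild type cells, and at 38.2 and 59.9 FPKM in knockout cells. Stat3 changed by 0.86 ± 0.16 (log2, SE, limma adjusted p = 0.00464), and Tyk2 fell from 15.2 to 4.58 FPKM in wild type and 19.5 to 5.79 FPKM in knockout cells. Socs3, the feedback inhibitor, did not pass (0.48 ± 0.28). In the Notch list 4 of 12 tested members rose and 2 fell, but 2 rose and 3 fell with quantile scaling and 3 rose and 4 fell with median centring. Hes1, a Notch target that curbs inflammatory genes, was at 1.99 FPKM with vehicle and 12.7 FPKM with nicotine in wild type cells, and at 0.321 and 4.504 FPKM in knockout cells. Hes1 changed by 2.13 ± 0.19 (log2, SE, limma adjusted p = 0.0005397), and Dtx1 moved from 2.24 to 19.5 FPKM in wild type and 2.75 to 15.5 FPKM in knockout cells, while Notch1, Notch2 and Jag1 did not pass. Hes1 and Dtx1 reached 5 FPKM in nicotine libraries only, so they had to differ. With a mean of at least 5 FPKM required, 3 of 11 Notch members rose and 2 fell. Of 4 tested aryl hydrocarbon receptor genes 3 rose and 1 fell. Tiparp was at 9.04 FPKM with vehicle and 97.6 FPKM with nicotine in wild type cells, and at 9.84 and 101.1 FPKM in knockout cells. Tiparp changed by 3.27 ± 0.12 (log2, SE, limma adjusted p = 0.000215), and Ahrr, the repressor that the receptor induces, went the other way, from 1.48 to 0.296 FPKM in wild type and 7.88 to 0.666 FPKM in knockout cells. Ahrr reached 5 FPKM in the knockout vehicle library only, so it had to differ there. Its change of -1.68 did not pass without the genotype term (limma adjusted p = 0.119), and it was -0.98 without the knockout vehicle library in the 8-library fit. With a mean of at least 5 FPKM required, Ahrr was not tested and 3 of 3 members rose.

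Clock genes moved in both directions. 9 of 14 tested members rose and 3 fell. The repressor Cry1 was at 2.77 FPKM with vehicle and 31.3 FPKM with nicotine in wild type cells, and at 2.19 and 39.9 FPKM in knockout cells. Cry1 changed by 3.39 ± 0.17 (log2, SE, limma adjusted p = 0.000235), and Arntl (2.003), Ciart (2.89), Bhlhe40 (1.90) and Clock (1.17) rose. Dbp, an output gene driven by BMAL1 and CLOCK, was at 42.8 FPKM with vehicle and 4.06 FPKM with nicotine in wild type cells, and at 14.7 and 1.43 FPKM in knockout cells. Dbp changed by -2.90 ± 0.16 (log2, SE, limma adjusted p = 0.000238), and Per3 (-1.93) and Nr1d1 (-1.22), the REV-ERBα gene, fell with it. Among p53 targets 11 of 16 tested members rose and 2 fell. Mdm2, the ubiquitin ligase that removes p53, was at 22.6 FPKM with vehicle and 412 FPKM with nicotine in wild type cells, and at 26.5 and 248 FPKM in knockout cells. Mdm2 changed by 3.65 ± 0.23 (log2, SE, limma adjusted p = 0.000263), and Plk2 (3.11), Gadd45g (2.30), Cdkn1a (2.01) and Gadd45a (1.87) rose, while Trp53 itself did not pass (0.26 ± 0.12). In the MYC network 5 of 10 tested members rose and 2 fell, while 3 rose and 3 fell with quantile scaling, with Max at 36.8 FPKM with vehicle and 146 FPKM with nicotine in wild type cells, and at 35.98 and 132 FPKM in knockout cells and the antagonist Mxd4 lower, from 37.2 to 11.1 FPKM in wild type and 35.3 to 12.3 FPKM in knockout cells. Among long noncoding and host RNAs 9 of 11 tested members rose and 1 fell. The risers were 7 hosts of small nucleolar RNAs, such as Snhg12 (2.69), Snhg1 (2.13), Snhg5 (1.97) and Gas5 (1.87), and Mir17hg and Rmrp. Gas5 and related host RNAs are spliced around the small RNAs in their introns, and what remains is normally short-lived.

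Metabolic genes moved in both directions. For glycolysis and hypoxia-inducible genes 15 of 26 tested members rose and 3 fell, with a median of 0.77. Of these, 12 rose and 6 fell with quantile scaling, with a median of 0.38. Vegfa, the vessel growth factor, was at 25.9 FPKM with vehicle and 243 FPKM with nicotine in wild type cells, and at 10.2 and 159 FPKM in knockout cells. Vegfa changed by 3.51 ± 0.19 (log2, SE, limma adjusted p = 0.000236). The glucose carrier gave Slc2a1 (1.87), hexokinase Hk2 (2.26) and the regulatory kinase Pfkfb3 (1.61), and Adm, for adrenomedullin, moved from 1.71 to 17.5 FPKM in wild type and 1.08 to 7.21 FPKM in knockout cells. Pfkfb4, a relative of Pfkfb3, fell (-1.62), and Hif1a did not pass (0.13 ± 0.15). Genes of oxidative phosphorylation gave 4 that rose and 11 that fell of 30, with a median of -0.22. With quantile scaling 1 rose and 21 fell. Ndufb3, of complex I, was at 81.9 FPKM with vehicle and 36.98 FPKM with nicotine in wild type cells, and at 112 and 59.8 FPKM in knockout cells. Ndufb3 changed by -1.01 ± 0.13 (log2, SE, limma adjusted p = 0.00145), and Ndufa9 (-0.98) and the succinate dehydrogenase subunit Sdhb (-0.96) fell to a similar degree, whereas Cycs, for cytochrome c, rose (0.82). Cholesterol and fatty acid synthesis gave 5 risers and 9 fallers of 25, and 4 rose and 5 fell in the fit over 8 libraries. Insig1, the brake on sterol synthesis, rose from 44.4 to 96.3 FPKM in wild type and 28.7 to 109.7 FPKM in knockout cells and the enzymes Mvk (-1.21), Nsdhl (-1.06) and Fdps (-0.79) fell. In lipid handling 9 of 20 tested members rose and 3 fell, led by the nuclear receptor Ppard, from 12.96 to 87.1 FPKM in wild type and 10.7 to 72.2 FPKM in knockout cells, and by Npc1, which exports cholesterol from lysosomes, from 35.4 to 143 FPKM in wild type and 26.1 to 102 FPKM in knockout cells. The lipid handling median was 0.09 as deposited. Of that list 5 rose and 7 fell with quantile scaling (median -0.16), and 6 rose and 8 fell with median centring (median -0.09), so fallers then outnumbered risers.

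Ribosomal protein genes were slightly higher as deposited but not with quantile scaling. 27 of 30 rose and 0 fell, with a median of 0.56 and no member at 2-fold. With quantile scaling 1 rose and 1 fell, with a median of 0.12, whereas with median centring 24 rose and 0 fell, with a median of 0.38. In the fit over 8 libraries 27 rose. That count was 6 without the wild type nicotine library, 14 without knockout nicotine, 17 without knockout vehicle and 20 without wild type vehicle. In the 4-library fit without the genotype term it was 1, so the ribosomal count depended on the scaling, on the fit and on single libraries. Rplp1 was at 1016 FPKM with vehicle and 1578 FPKM with nicotine in wild type cells, and at 784 and 1261 FPKM in knockout cells. Rplp1 changed by 0.66 ± 0.08 (log2, SE, limma adjusted p = 0.00125). For ribosome assembly in the nucleolus 19 of 24 tested members rose and 0 fell, with a median of 0.79, and with quantile scaling 17 rose and 0 fell. Nop14, of the small subunit path, was at 8.71 FPKM with vehicle and 43.9 FPKM with nicotine in wild type cells, and at 6.86 and 47.05 FPKM in knockout cells. Nop14 changed by 2.41 ± 0.15 (log2, SE, limma adjusted p = 0.000253), and Ncl (1.78), for nucleolin, Nop56 (1.48) and Npm1 (1.35) rose.

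Several lists of macrophage receptors and effectors held more fallers than risers in the 4-library fit. Of the pattern recognition list 5 of 22 rose and 9 fell. Tlr8 was at 73.6 FPKM with vehicle and 8.73 FPKM with nicotine in wild type cells, and at 47.4 and 5.68 FPKM in knockout cells. Tlr8 changed by -2.90 ± 0.12 (log2, SE, limma adjusted p = 0.000221). Pycard, the adaptor of inflammasomes, was at 31.5 FPKM with vehicle and 5.73 FPKM with nicotine in wild type cells, and at 39.7 and 7.18 FPKM in knockout cells. Pycard changed by -2.29 ± 0.12 (log2, SE, limma adjusted p = 0.000236). Tlr4, the LPS receptor, fell by 0.68 on the log2 scale whereas its partners Ly96 and Cd14 rose, Ly96 from 47.6 to 139.9 FPKM in wild type and 29.4 to 112 FPKM in knockout cells. Nlrp3 rose from 17.05 to 48.4 FPKM in wild type and 25.2 to 39.4 FPKM in knockout cells. In the list of Fc and chemoattractant receptors 1 of 15 tested members rose and 10 fell, and 5 fell in the fit over 8 libraries. Fpr1, the formyl peptide receptor, was at 26.2 FPKM with vehicle and 2.98 FPKM with nicotine in wild type cells, and at 201 and 17.4 FPKM in knockout cells. Fpr1 changed by -3.12 ± 0.19 (log2, SE, limma adjusted p = 0.000252), and Gpr84 (-2.44) and Fcgr1 (-1.93), the high-affinity IgG receptor, fell with it, while P2rx7, the ATP receptor, rose (0.78). Of the effector enzymes 3 of 17 tested members rose and 9 fell, against 2 and 4 over 8 libraries. Ncf1, a subunit of the phagocyte oxidase, was at 190.3 FPKM with vehicle and 41.7 FPKM with nicotine in wild type cells, and at 240.2 and 40.6 FPKM in knockout cells. Ncf1 changed by -2.35 ± 0.14 (log2, SE, limma adjusted p = 0.000252), and Alox5, which starts leukotriene synthesis, moved from 16.5 to 3.13 FPKM in wild type and 13.3 to 2.39 FPKM in knockout cells. Ptgs2, the inducible cyclooxygenase, rose from 0.508 to 7.66 FPKM in wild type and 10.7 to 20.2 FPKM in knockout cells. Arg1 fell from 82.8 to 9.29 FPKM in wild type and 72.8 to 46.2 FPKM in knockout cells, mostly in wild type cells (log2 change -1.83, limma adjusted p = 0.023). It did not pass in the fit over 8 libraries (limma adjusted p = 0.0605) or without the genotype term (limma adjusted p = 0.109). Its change was -0.56 when the wild type vehicle library was left out of the 8-library fit. Among MHC and peptide loading genes 2 of 18 tested members rose and 7 fell, with H2-M3 (-1.39) lowest, and 1 rose and 4 fell over 8 libraries. Scavenger receptors gave 6 risers and 6 fallers of 19, with Mertk (-1.34), a receptor for dying cells, lowest. Of the scavenger receptors 2 rose and 8 fell with quantile scaling, 2 rose and 8 fell with median centring, and 1 rose and 3 fell in the fit over 8 libraries. Of the complement genes 2 of 13 rose and 4 fell, the 3 C1q chains among them, with C1qc (-0.80). Over 8 libraries 1 complement gene rose and 2 fell.

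Proteases and matrix genes moved in both directions. 11 of 17 tested members rose and 3 fell, with a median of 0.97. Plau, the urokinase gene, was at 53.04 FPKM with vehicle and 213 FPKM with nicotine in wild type cells, and at 18.96 and 203 FPKM in knockout cells. Plau changed by 2.67 ± 0.31 (log2, SE, limma adjusted p = 0.00107). Its receptor Plaur moved from 98.9 to 414 FPKM in wild type and 70.5 to 204 FPKM in knockout cells, and Spp1, for osteopontin, from 157 to 411 FPKM in wild type and 46.5 to 313 FPKM in knockout cells. In the actin cytoskeleton list 5 of 25 tested members rose and 9 fell, and with quantile scaling 1 and 13. Actb, a gene often used as a reference, was at 1272 FPKM with vehicle and 491 FPKM with nicotine in wild type cells, and at 1343 and 488 FPKM in knockout cells. Actb changed by -1.42 ± 0.09 (log2, SE, limma adjusted p = 0.000255). Lcp1, for L-plastin, fell from 266 to 119 FPKM in wild type and 382 to 121 FPKM in knockout cells and Actn4 rose from 37.1 to 93.9 FPKM in wild type and 41.1 to 95.4 FPKM in knockout cells. Among cell cycle genes 8 of 26 were tested, 2 rose and 3 fell, with Pcna (1.42) and Ccnd3 (-1.50) at the ends.

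Markers of the cells in the dish were read for each library. Of resident peritoneal macrophage markers 5 of 19 tested members rose and 7 fell, with a median of 0.04. Of these markers 1 rose and 8 fell with quantile scaling, with a median of -0.32. In the fit over 8 libraries 1 rose and 2 fell, and in the 4-library fit without the genotype term 0 rose and 0 fell. Adgre1, for a surface protein that marks mouse macrophages, was at 289 FPKM with vehicle and 307 FPKM with nicotine in wild type cells, and at 329 and 307 FPKM in knockout cells and did not pass (-0.01 ± 0.11), and Lyz2, for lysozyme, was at 32448 FPKM with vehicle and 23697 FPKM with nicotine in wild type cells, and at 28713 and 22831 FPKM in knockout cells. Gata6, the factor that sets the identity of resident peritoneal macrophages, was at 15.7 FPKM with vehicle and 2.296 FPKM with nicotine in wild type cells, and at 3.49 and 0.874 FPKM in knockout cells. Gata6 changed by -1.803 ± 0.29 (log2, SE, limma adjusted p = 0.00298), and no other marker of this list was at least 2-fold lower in both genotypes. Ccr2, the monocyte chemokine receptor, was at 17.8 FPKM with vehicle and 1.002 FPKM with nicotine in wild type cells, and at 11.9 and 0.892 FPKM in knockout cells. Ccr2 changed by -3.001 ± 0.19 (log2, SE, limma adjusted p = 0.000255), and in the monocyte and dendritic cell list 2 of 8 tested members rose and 2 fell, with sums of 384 and 434 FPKM in wild type and 528 and 499 FPKM in knockout cells. B cell genes were present, with Cd79a at 93.3 FPKM with vehicle and 70.2 FPKM with nicotine in wild type cells, and at 82.8 and 52.7 FPKM in knockout cells, 4 of 10 tested members rose and 3 fell, and the 12 genes summed to 336 and 329 FPKM in wild type and 326 and 253 FPKM in knockout cells. Mast cell genes were higher with nicotine in 6 of 7 tested, with Mcpt4 at 21.01 FPKM with vehicle and 48.7 FPKM with nicotine in wild type cells, and at 21.8 and 46.5 FPKM in knockout cells. Mcpt4 changed by 1.12 ± 0.13 (log2, SE, limma adjusted p = 0.0009696). The summed FPKM of the 10 mast cell genes was 221.0 and 426 in wild type and 166 and 326 in knockout cells, while Kit, their defining receptor, was at 4.58, 3.78, 3.12 and 3.35 FPKM in the order wild type vehicle, wild type nicotine, knockout vehicle and knockout nicotine. The tested T cell genes were Cd28 and Il7r, and both rose, with Il7r from 15.3 to 61.3 FPKM in wild type and 7.41 to 42.7 FPKM in knockout cells. Cd28 reached 5 FPKM in nicotine libraries only, so it had to differ. Without a filter 3 of 14 T and NK cell genes rose and 3 fell, with a median of -0.06. Cd3e, of the T cell receptor complex, was at 1.26, 1.68, 1.24 and 1.38 FPKM in the same order as Kit. The 14 T and NK cell genes summed to 31.97 and 83.9 FPKM in wild type and 22.1 and 60.7 FPKM in knockout cells, and Il7r made up much of the nicotine sums. Neutrophil genes gave 3 fallers of 3 tested, with Csf3r (-1.39), their 11 genes summed to 167 and 83.0 FPKM in wild type and 194 and 93.8 FPKM in knockout cells, and the defining S100a9 was listed at 0 FPKM in both wild type libraries and at 0.219 and 0.191 FPKM in knockout ones. Eosinophil genes gave 1 faller, Ear2 (-0.59), with Epx, their peroxidase, at 0 FPKM in all 4 libraries, and of erythroid and platelet genes Ppbp was tested and did not pass. Mesothelial and fibroblast markers did not reach 5 FPKM, and their 14 genes summed to between 1.36 and 2.82 FPKM. In these bulk libraries fewer cells of a type and less RNA per cell cannot be told apart, and the part of other cell types in the changes above was not tested. For the macrophage list the sums were 43326 and 35481 FPKM in wild type and 64610.1 and 57994 FPKM in knockout cells. Such sums follow their most abundant genes, and Lyz2 held a large part of each. Lyz2 was lower in knockout than in wild type cells, so the higher knockout sums came from other genes and do not measure macrophage number.

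The same exposure in cells that then received LPS gave an effect that differed for many genes. The difference was tested as an interaction of nicotine and LPS in limma over all 8 libraries, with genotype as an additive term. For 1020 genes (12.3%) the nicotine effect was higher with LPS than without, and for 1605 (19.4%) it was lower, with calls at 0.05 after adjustment. With quantile scaling the split was 1306 and 1150, and with median centring 1307 and 1131, so the balance of directions depends on the scaling. The 2625 calls became 1129 without the wild type vehicle library, 1219 without wild type nicotine, 863 without wild type nicotine and LPS, 1222 without knockout nicotine and 1085 without knockout nicotine and LPS. Of the 1235 genes at least 2-fold higher in both genotypes without LPS, 1075 were also higher in both with LPS, 561 of them at least 2-fold, and 21 were at least 2-fold lower. Of the 797 lower genes, 580 were also lower in both with LPS, 289 at least 2-fold, and 8 were at least 2-fold higher. The matching shares of all tested genes with LPS were not counted, so these counts do not show how far they exceed them. Across the 8293 genes the mean effects without and with LPS had a Pearson correlation of 0.586, as a description. The ATF4 regulators had a median of 2.16 without and 2.10 with LPS, and the GTPases -1.26 and -2.61. Of 17 ATF4 regulators 3 had an effect called higher with LPS and 5 one called lower. Of 13 GTPases 2 were called lower and 0 higher, so the shift of their median rested mostly on differences that did not pass. The cytokine list turned from 0.75 to -2.08, with 8 of 10 members called lower with LPS, and the chemokines from 0.26 to -1.69, with 8 of 18. The cytokine median without LPS depended on the filter. It was 0.28 with a mean of at least 5 FPKM required and 0.05 without a filter. For the interferon-stimulated genes the medians were -0.90 and -2.30, and 14 of 32 were called lower.

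Osm rose with nicotine alone but was lower with nicotine in LPS-treated cells, at 478 FPKM with LPS and 94.8 FPKM with both in wild type and 124 and 49.03 FPKM in knockout cells (difference -5.67 ± 0.41, SE, limma adjusted p = 0.00384). It was thus higher with nicotine from low vehicle levels and lower from high LPS levels. Hdc, which makes histamine, followed the same order, at 2.64 FPKM with vehicle and 25.1 FPKM with nicotine in wild type cells, and at 1.66 and 19.1 FPKM in knockout cells without LPS and with an effect of -1.63 with LPS (difference -4.51 ± 0.26, limma adjusted p = 0.00208). Among genes whose effect was higher with LPS, Sesn1 was at 1.31 and 8.51 FPKM in wild type and 1.24 and 7.41 FPKM in knockout cells with LPS and with both (difference 4.20 ± 0.24, limma adjusted p = 0.00208). Ypel3, a gene linked to growth arrest, fell without LPS from 165 to 46.4 FPKM in wild type and 77.8 to 26.1 FPKM in knockout cells, and with LPS it stood at 3.43 and 24.9 FPKM in wild type and 3.65 and 20.8 FPKM in knockout cells. In both genes nicotine libraries with and without LPS held like levels, between the vehicle and the LPS libraries.

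**Figure D5:**
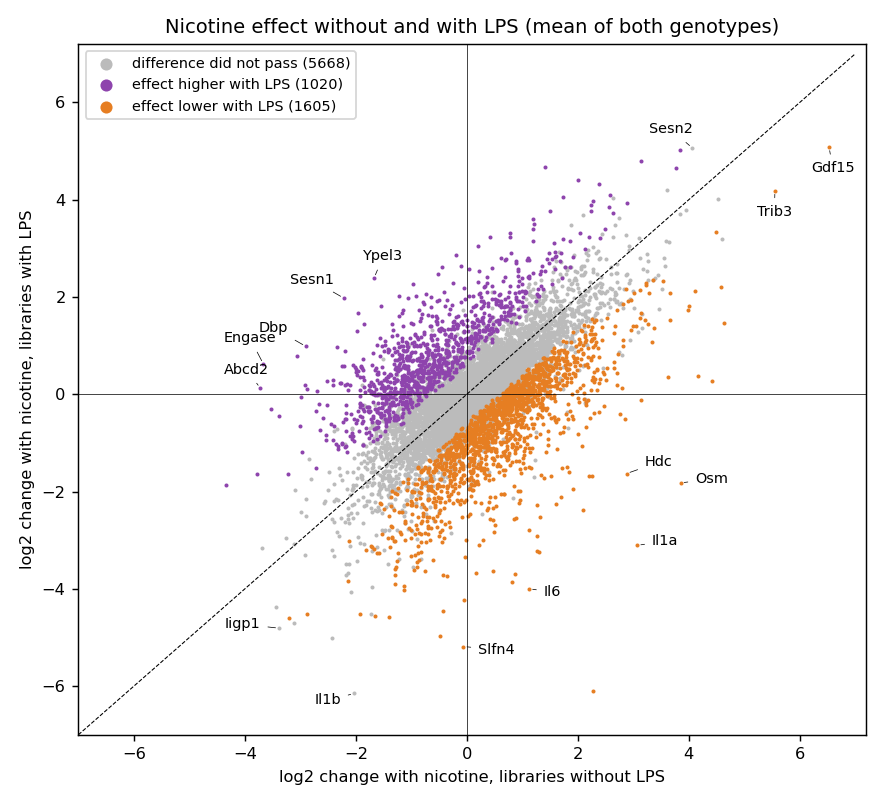
Log2 change of FPKM + 1 with nicotine in the libraries without LPS (horizontal) and with LPS (vertical), each the mean of both genotypes; each point is 1 of 8293 genes, coloured by the limma call of the difference, and the dashed line marks equal effects. The 1605 genes whose effect was called lower with LPS include Il1a and Osm, which rose without LPS and have negative effects with LPS. The 1020 called higher with LPS include Sesn1 and Ypel3. Gdf15 and Trib3 are high on both axes.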

How the data were processed

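Poly(A) RNA from 8 macrophage samples was sequenced with a kit that does not keep strand, per the labels' protocols. The table deposited by the authors holds FPKM per gene, and per the submitters' processing notes the tools were HISAT2, Cufflinks, Cuffdiff and CASAVA 1.8, on mm10. Counts were not used here, so the sequencing depth behind each value is unknown, and with 1 library per group no replicate error within a group exists. Of 24341 lines, 2 repeated a symbol and were left out, and 8489 of 24339 genes were at 0 in the 4 libraries without LPS.

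Genes with at least 5 FPKM in any of these 4 libraries were compared on log2(FPKM + 1) with limma 3.58.1 in R 4.3.3, with genotype as a blocking term, an intensity trend and Benjamini-Hochberg adjustment, and the difference from the effect with LPS as an interaction over 8 libraries. A fold is 2 to the power of the log2 change, which understates low genes. Scripts used Python 3.11.15 and pandas 2.3.3 and were tested on simulated data. The genes named were the 12 largest rises and falls that were 2-fold in both genotypes, up to 6 extreme or defining members of each of 51 gene lists, 9 genes of the α7 and cytokine literature, and the 8 highest and lowest differences, of which 1 is not reported here; further list members were named after their values were seen. Members and lists were chosen with earlier results of these data known. Positions come from GENCODE on GRCm38. Alternatives were 2 pseudocounts, 3 filters, quantile scaling, median centring, no trend, no genotype term, and 8 libraries with each left out.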

Additional observations from a re-analysis of the deposited data

Results flagged for a closer look

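The nicotine effect with LPS was tested against that without LPS, and it differed for 2625 genes by limma's interaction test. It was lower with LPS for Il1a (-6.18), Osm (-5.67), Slfn4 (-5.12), Il6 (-5.12), Timp1 (-4.56), Atp10a (-4.54) and Hdc (-4.51), as the log2 effect with LPS minus that without. It was higher with LPS for Engase (4.29), Sesn1 (4.20), Ypel3 (4.06), Dbp (3.88), Susd3 (3.85), Abcd2 (3.85), Rgs2 (3.64) and Mxd4 (3.37).

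In opposite directions in the 2 genotypes, by at least 2-fold each, were 2 genes without LPS, and with 1 library per group this difference was not tested. Irg1, now named Acod1, which makes itaconate (GRCm38 chromosome 14, plus strand, 103046977 to 103056573), was at 17.4 FPKM with vehicle and 51.5 FPKM with nicotine in wild type cells, and at 232 and 54.4 FPKM in knockout cells, log2 ratios 1.51 and -2.07. Snord17, a small nucleolar RNA, was at 7.84 FPKM with vehicle and 0 FPKM with nicotine in wild type cells, and at 2.35 and 5.99 FPKM in knockout cells, log2 ratios -3.14 and 1.06, and RNAs of this size are poorly captured in poly(A) libraries.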

How the results depend on the processing

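The count of 5619 genes was 3602 without the genotype term, which is the fit that does not pair the libraries by genotype, and 3473 to 3758 when 1 of the 4 libraries was left out of the 8-library fit. All other alternatives gave 4921 to 7106. Counts of 2-fold genes fell to 1555 in wild type and 1434 in knockout cells with a pseudocount of 5. The 2625 differences with LPS became 1345 without the genotype term and ranged from 863 to 3123 with 1 library left out. The causes were not tested.

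Of 266 genes named with a test 244 passed. All 244 kept their direction under the alternatives in which they were tested, and 177 also passed under each. Of those that did not pass, the log2 change was -0.07 for Ccl5, -0.35 for Hif1a, -0.1 for Trp53 and -0.13 for Xbp1 with quantile scaling, and -0.00362 for Fth1, -0.04 for Hif1a and -0.13 for Saa3 with median centring. With 1 library left out it ran from -0.1 to 0.09 for Adgre1, -0.25 to 2.69 for Ccl4, -1.1 to 1.65 for Ccl5, -0.08 to 0.42 for Fth1 and -0.31 to 0.57 for Hif1a. It ran from -0.44 to 0.31 for Hspa4l, -2.19 to 1.63 for Irg1, -1.12 to 0.19 for Jak2, -0.29 to 0.37 for Saa3, -0.56 to 0.44 for Slfn4 and -2.54 to 0.45 for Snord17.

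Each group is 1 library of unknown depth and the 4-library test has 1 residual degree of freedom, so its calls rest on a spread shared across genes. Low values cannot be told from failed estimates, and changes near the median shift of all genes depend on the scaling.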

Other observations

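Several genes outside the lists and outside the 12 largest rises were at least 8-fold higher in both genotypes, and are named after their values were seen. Gem, a small GTPase that holds back calcium channels, was at 2.48 FPKM with vehicle and 43.8 FPKM with nicotine in wild type cells, and at 3.55 and 54.1 FPKM in knockout cells (log2 change 3.64 ± 0.12, SE, limma adjusted p = 0.000168). Irs2, the adaptor of insulin and interleukin 4 receptors, was at 5.82 FPKM with vehicle and 70.6 FPKM with nicotine in wild type cells, and at 2.34 and 45.3 FPKM in knockout cells (log2 change 3.59 ± 0.15, SE, limma adjusted p = 0.000221). Hilpda, a lipid droplet protein, rose by 3.63 on the log2 scale. Maff, a small partner of NRF2 and BACH1, rose by 3.35. Slc30a1, the zinc exporter, rose by 3.45 and the phosphate importer Slc20a1 by 3.20. Efnb2, an ephrin, and Pvr, the poliovirus receptor that immune cells bind, rose by 3.35 and 3.28. All 8 genes were higher with nicotine in both genotypes, as their choice required.

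Among the falls, Fgr, a SRC family kinase of phagocytes, was at 56.1 FPKM with vehicle and 6.03 FPKM with nicotine in wild type cells, and at 69.4 and 6.81 FPKM in knockout cells (log2 change -3.10 ± 0.13, SE, limma adjusted p = 0.000221), so that both nicotine libraries were far below both vehicle libraries.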
